A study of Homo sapiens with 24 samples.

Results

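The subunits of Polycomb repressive complex 2 (PRC2) were followed at the RNA level: EZH2, EZH1, SUZ12, EED, RBBP4, JARID2, AEBP2, PHF1, PHF19 and MTF2. These 10 genes were taken by symbol from raw count files of 58735 entries, and each of the 10 was found. PRC2 places methyl groups on lysine 27 of histone H3, a mark of silenced developmental genes. EZH2, or its paralog EZH1, is the catalytic subunit, and it works only when bound to SUZ12 and EED, with the histone chaperone RBBP4 alongside. The accessory subunits join SUZ12 in alternative forms of the complex, one with JARID2 and AEBP2 and the other with a Polycomb-like protein, PHF1, MTF2 or PHF19. In many tissues EZH2 is the form of dividing cells and EZH1 that of resting cells, and EZH2 is often abundant in breast cancers that lack hormone receptors.

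The 24 libraries of polyadenylated RNA came from 3 established breast cancer cell lines, HCC1395, HCC38 and HCC1937, with 3 libraries (replicates A, B and C) in each of 8 groups. HCC1395 was given DMSO, 5 uM tazemetostat (EZH2i, an inhibitor of the EZH2 enzyme), 5 uM ipatasertib (AKTi, an inhibitor of the AKT kinases) or both at these doses (EZH2i+AKTi). HCC38 and HCC1937 were given DMSO or both. The labels' timeline of drug exposure refers to a different line and assay, which leaves the duration in these libraries unknown, and no clone or passage is given. Whether replicates were grown as separate cultures is not stated, and the p-values then reflect only variation between these libraries, which may be technical. In bulk RNA, fewer cells of a type and less RNA per cell cannot be told apart.

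Many transcription factors bind the sequence just before the start of a gene, and it is shown for the catalytic and core subunits because the results turn on them. Each line gives the 250 bases before an annotated start (RefSeq, GRCh38.p14), 5′ to 3′ on the strand of the gene, and the capitals mark matches to CCAAT (or ATTGG, the other strand) and to E2F-type words.
EZH2, chr7:148884292-148884541, minus strand: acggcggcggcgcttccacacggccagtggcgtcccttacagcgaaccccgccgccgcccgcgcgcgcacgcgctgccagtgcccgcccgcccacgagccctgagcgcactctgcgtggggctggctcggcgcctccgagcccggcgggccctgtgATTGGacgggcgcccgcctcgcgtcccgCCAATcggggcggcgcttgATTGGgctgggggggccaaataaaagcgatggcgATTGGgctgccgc
EZH1, chr17:42745041-42745290, minus strand: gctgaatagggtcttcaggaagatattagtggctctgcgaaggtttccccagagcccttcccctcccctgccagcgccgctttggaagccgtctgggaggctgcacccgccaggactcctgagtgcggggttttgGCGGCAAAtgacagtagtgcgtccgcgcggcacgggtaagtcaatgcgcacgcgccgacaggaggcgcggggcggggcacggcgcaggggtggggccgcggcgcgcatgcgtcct
SUZ12, chr17:31936757-31937006, plus strand: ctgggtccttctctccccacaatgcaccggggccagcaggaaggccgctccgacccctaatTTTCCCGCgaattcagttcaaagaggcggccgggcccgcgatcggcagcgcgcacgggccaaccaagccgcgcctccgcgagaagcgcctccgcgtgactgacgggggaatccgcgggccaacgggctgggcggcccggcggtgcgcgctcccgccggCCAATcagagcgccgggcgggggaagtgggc
EED, chr11:86244503-86244752, plus strand: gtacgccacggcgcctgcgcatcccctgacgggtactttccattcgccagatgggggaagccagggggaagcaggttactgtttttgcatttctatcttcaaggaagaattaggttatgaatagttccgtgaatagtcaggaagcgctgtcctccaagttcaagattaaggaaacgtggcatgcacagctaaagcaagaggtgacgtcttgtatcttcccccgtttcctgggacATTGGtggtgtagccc
RBBP4, chr1:32650958-32651207, plus strand: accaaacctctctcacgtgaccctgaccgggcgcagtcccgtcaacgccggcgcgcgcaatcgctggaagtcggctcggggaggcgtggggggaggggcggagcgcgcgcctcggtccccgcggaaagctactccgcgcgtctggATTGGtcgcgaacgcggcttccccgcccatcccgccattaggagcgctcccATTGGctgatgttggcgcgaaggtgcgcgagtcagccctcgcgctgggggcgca
The E2F-type words searched on both strands were TTTCCCGC, TTTCGCGC, TTTGCCGC and TTTGGCGC, which 2.79% of 35116 such windows of all genes held, and CCAAT was in 32% of them. EZH2 carried 4 CCAAT matches, 94, 66, 47 and 13 bases before this start, and no E2F-type word in this window. EZH1 carried 1 E2F-type match (GCGGCAAA, which is TTTGCCGC on the other strand, 115 bases before the start), and SUZ12 carried 1 (TTTCCCGC, 189 bases) with a CCAAT match at 31 bases. EED had a CCAAT match at 16 bases and RBBP4 had 2, at 105 and 54 bases. No matches overlapped. FOXO (TGTTTAC, in 2.98% of windows) had no match in any of these 5 windows, and CHR (TTTGAA, in 13.3%) had 1, in SUZ12 at 173 bases. EZH2 and RBBP4 each have a further annotated start that is not shown. The further window held no match in EZH2 and a CCAAT match at 202 bases in RBBP4. Among the accessory subunits, also not shown, AEBP2 (TTTGCCGC, 150 bases) and a start of PHF19 (GCGGGAAA, 152 bases) held an E2F-type word. A match is a description of letters and not of binding, which these libraries did not measure.

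Library totals ran from 33469927 to 51815656 counts, and a member held 216 to 10203 counts in a library. All 10 members passed the low-count filter in every fit. In HCC38 the EZH2i+AKTi library C stood apart, with 7.77% of counts from mitochondrial genes against 4.76% and 5.19% in the other two, and the members' changes in HCC38 are given with and without it. In untreated cells PGR was at or near 0 CPM in the 3 lines, and ESR1 averaged 0.147 CPM in HCC1395, 2.01 in HCC38 and 20.8 in HCC1937. HCC1395 held little of the epithelial markers CDH1 (0.347 CPM) and EPCAM (1.75 CPM). It carried the epithelial marker KRT14 (431 CPM) and the fibroblast marker COL1A2 (733 CPM), whereas EPCAM averaged 508 CPM in HCC38 and 336 in HCC1937. These are some members of longer marker lists, and no cell identity is read from them. The counting's strand setting is not given in the sources used here, so reads of overlapping neighbours on the opposite strand may be shared. This touches RBBP4 (1706 exon bases shared with SYNC, 1657 counts against 187943 over all libraries) and PHF1 (12 exon bases shared with CUTA, 116060 counts against 41981). SUZ12 and RBBP4 also have near copies, SUZ12P1 (median 268 counts in a library) and RBBP4P1 (142), with which reads may be split.

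Under AKTi, alone or with EZH2i, HCC1395 cells held less EZH2, EED, SUZ12 and RBBP4 RNA and more EZH1 RNA than under DMSO, while EZH2i alone left 9 of the 10 transcripts uncalled. HCC1937 cells under both inhibitors showed lower EZH2, SUZ12, EED, MTF2 and RBBP4 and higher EZH1. In HCC38 under both inhibitors EZH1 rose, EED fell at the edge of the threshold, and EZH2 was not called. These values are shown library by library, as depth-scaled counts (CPM, with TMM factors over the 24 libraries). Changes are log2 fold changes from edgeR's quasi-likelihood test, called at a Benjamini-Hochberg adjusted p under 0.05 over all genes tested. Each standard error was derived from that test, as the absolute change divided by the square root of its F value.

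**Figure D1:**
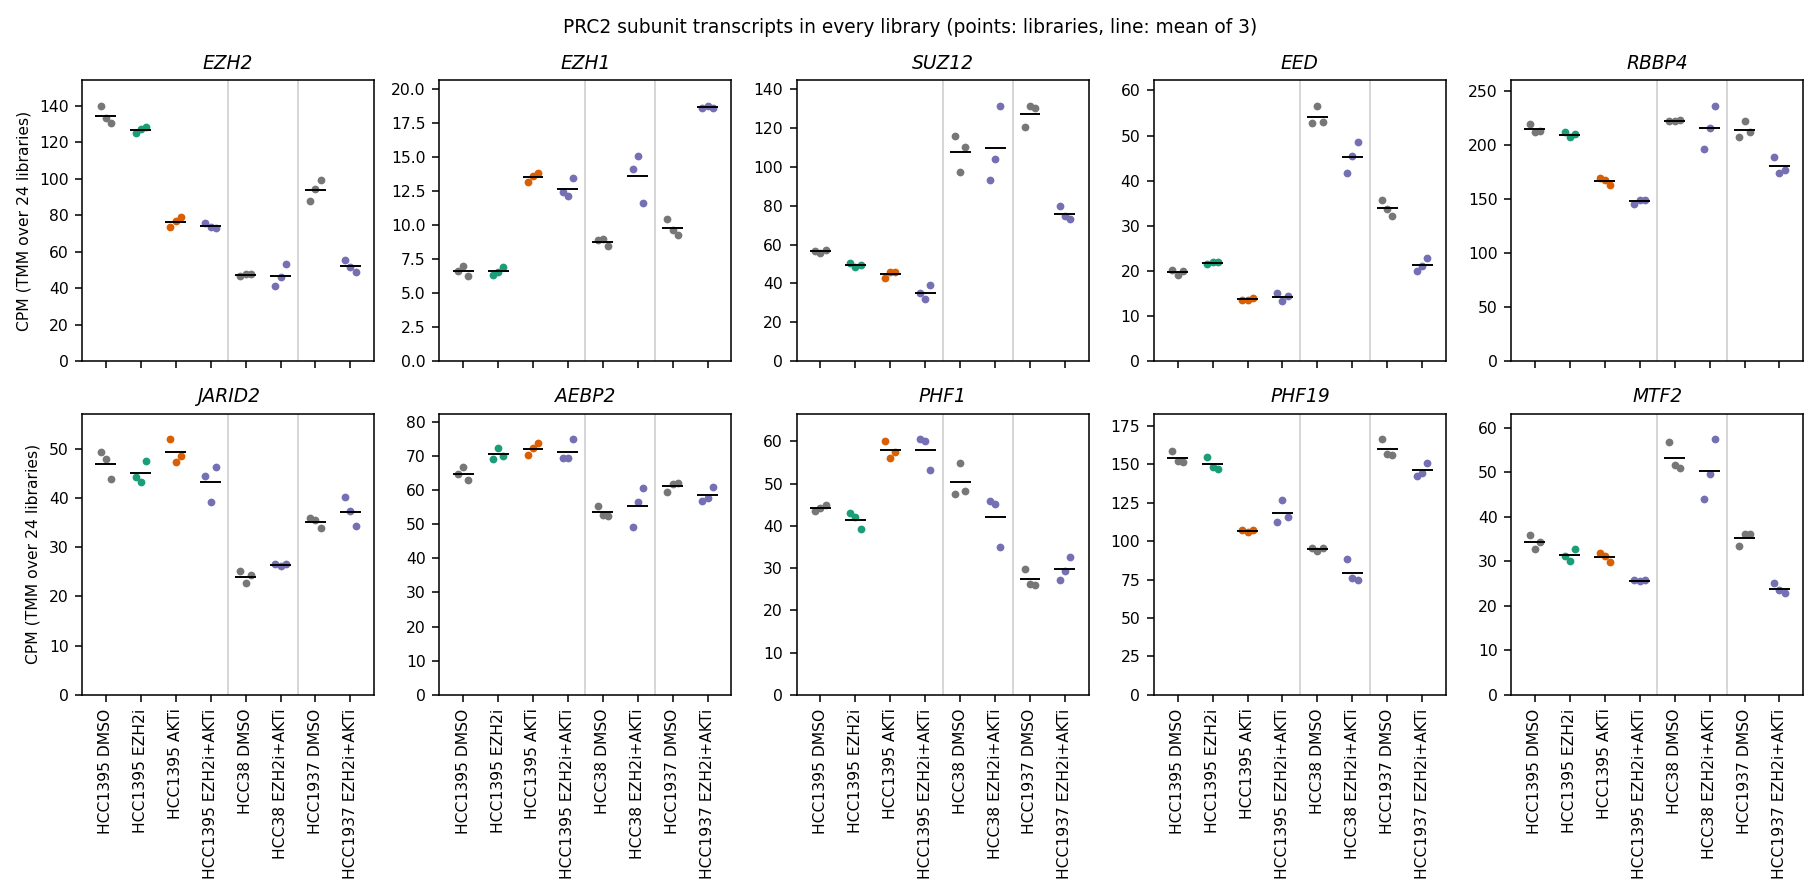
CPM of each of the 10 transcripts in every library (points), with the mean of 3 as a line, and the 8 groups along the axis (grey DMSO, green EZH2i, orange AKTi, purple EZH2i+AKTi). EZH2 sat between 72.88 and 78.94 CPM in the 6 HCC1395 libraries with AKTi and between 125.48 and 140.10 in the 6 without it, and EZH1 lay the other way round.

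EZH2, the methyltransferase of dividing cells, had 140.10, 133.48 and 130.44 CPM in the DMSO libraries A, B and C of HCC1395. It had 125.48, 127.13 and 128.24 CPM under EZH2i, 73.77, 76.69 and 78.94 under AKTi, and 75.86, 73.87 and 72.88 under both. The 6 libraries with AKTi lay far below the 6 without it, and the EZH2i libraries lay just under those of DMSO with no overlap. EZH2 fell by 0.82 ± 0.05 on the log2 scale under AKTi (adjusted p = 1.28e-11) and by 0.87 ± 0.05 under both (adjusted p = 2.52e-12). Among all genes tested these changes stood at the 5.32 and 4.81 percentiles. The change under EZH2i was -0.08 ± 0.05 (95% interval -0.19 to 0.03, adjusted p = 0.202), which passed the threshold in the Wald test of DESeq2 (-0.12, adjusted p = 0.0311) and without the EZH2i+AKTi library B (-0.13, adjusted p = 0.0153). Between both inhibitors and AKTi alone EZH2 differed by -0.05 (95% interval -0.15 to 0.06, adjusted p = 0.506).

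In HCC1937, EZH2 had 87.70, 94.48 and 99.58 CPM under DMSO and 55.61, 51.89 and 49.19 under both inhibitors, so the groups were well apart. It fell by 0.85 ± 0.07 (adjusted p = 5.3e-08), at the 5.04 percentile of all genes. In HCC38 it had 46.78, 47.80 and 47.70 CPM under DMSO and 41.41, 46.13 and 53.20 under both. The treated libraries spanned the DMSO libraries, and library C, the one that stood apart, was the highest. The change was -0.05 ± 0.11 (95% interval -0.35 to 0.25, adjusted p = 0.771), and -0.11 without library C (adjusted p = 0.323). The responses of the lines, meaning their signed log2 changes under both inhibitors, were compared in a joint fit. The difference of HCC38 from HCC1395 was 0.84 ± 0.10 (adjusted p = 1.72e-07), as EZH2 fell in HCC1395 and was not called in HCC38. The difference of HCC1937 from HCC38 was -0.83 ± 0.10 (adjusted p = 2.87e-07). The responses of HCC1937 and HCC1395 differed by 0.01 (95% interval -0.20 to 0.23).

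EZH1, the paralog with the weaker catalytic activity, had 6.65, 7.03 and 6.28 CPM under DMSO in HCC1395 and 6.34, 6.55 and 6.89 under EZH2i. It had 13.13, 13.62 and 13.84 CPM under AKTi and 12.40, 12.16 and 13.48 under both. Each of the 6 libraries with AKTi held more than each of the 6 without it, and the EZH2i and DMSO libraries overlapped. EZH1 rose by 1.02 ± 0.08 under AKTi (2.02-fold, adjusted p = 2.77e-09), at the 94.1 percentile of all genes, and by 0.92 ± 0.08 under both (1.89-fold, adjusted p = 6.69e-09), at the 85.0 percentile. Under EZH2i the change was -0.01 (95% interval -0.21 to 0.20, adjusted p = 0.965).

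Under both inhibitors EZH1 was called higher in each of the 3 lines. In HCC1937 it had 10.41, 9.64 and 9.26 CPM under DMSO and 18.62, 18.74 and 18.61 under both, a rise of 0.93 ± 0.08 (1.91-fold, adjusted p = 1.32e-07). In HCC38 it had 8.93, 8.95 and 8.49 CPM under DMSO and 14.14, 15.05 and 11.60 under both, a rise of 0.60 ± 0.13 (1.52-fold, adjusted p = 0.00541). No treated library overlapped the DMSO libraries in either line, and the treated library C of HCC38 was the lowest of its group. Without that library the change in HCC38 was 0.74 (adjusted p = 1.23e-05). The response of HCC38 differed from that of HCC1395 by -0.30 ± 0.13 (95% interval -0.57 to -0.02, adjusted p = 0.0846). This difference passed the threshold without the HCC38 EZH2i+AKTi library B (-0.37, adjusted p = 0.0352), and was -0.20 without library C of that group (adjusted p = 0.247).

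EZH1 and EZH2 are alternatives for one place in the complex, so their RNA was also compared per length, as CPM per kilobase of annotated exons. In HCC1395 EZH1 made up 3.10% ± 0.17 (SD, n = 3) of the EZH1 and EZH2 RNA under DMSO and 3.25% ± 0.10 under EZH2i. Its share was 10.3% ± 0.08 under AKTi and 9.96% ± 0.63 under both. In HCC1937 the share was 6.34% ± 0.74 under DMSO and 18.8% ± 0.94 under both, and in HCC38 10.7% ± 0.34 and 16.0% ± 3.14. EZH2 RNA remained the larger in all 24 libraries, and the treated share in HCC38 ran from 12.4% in library C to 18.1%. With the longest transcript as the length, the means ran from 3.75% in HCC1395 under DMSO to 22.0% in HCC1937 under both.

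**Figure D2:**
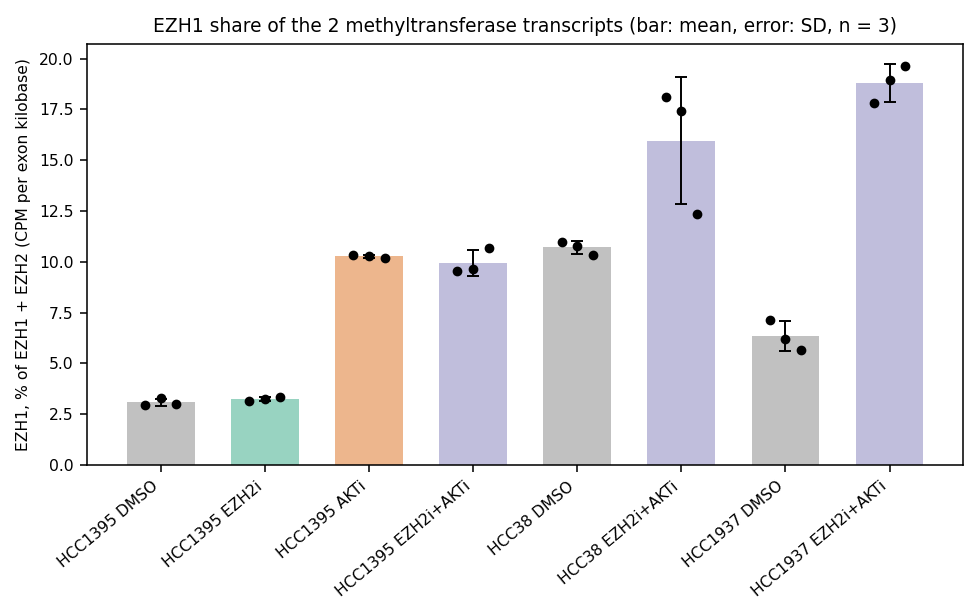
EZH1 as a percentage of EZH1 plus EZH2, in CPM per exon kilobase, for the 8 groups (bar, mean of 3 libraries; error, SD; points, libraries). The share lies near 3% in HCC1395 without AKTi and near 10% with it, and every treated group in HCC38 and HCC1937 lies above its DMSO group.

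SUZ12, the scaffold on which the complex is built, had 56.51, 55.54 and 57.45 CPM under DMSO in HCC1395 and 50.45, 48.23 and 49.62 under EZH2i. It had 42.57, 45.66 and 46.11 CPM under AKTi and 35.00, 31.83 and 39.15 under both. The 4 groups formed descending steps with no overlap between one and the next. SUZ12 fell by 0.34 ± 0.06 under AKTi (adjusted p = 0.000157), by 0.69 ± 0.06 under both (adjusted p = 1.11e-08), and by 0.35 from AKTi to both (adjusted p = 0.000287). It was the only member called under EZH2i (-0.19 ± 0.06, adjusted p = 0.0277), and that call was lost without DMSO library A (adjusted p = 0.0604), DMSO library C (0.0797), EZH2i library B (0.103) or EZH2i library C (0.0628). In HCC1937 SUZ12 went from 120.42, 131.10 and 130.16 CPM to 79.74, 74.50 and 72.90 under both, a fall by 0.75 ± 0.06 (adjusted p = 5.72e-08). In HCC38 the DMSO libraries (115.53, 97.12 and 109.96 CPM) and the treated ones (92.99, 104.13 and 131.22) overlapped, and the change was -0.01 (95% interval -0.37 to 0.36, adjusted p = 0.978), or -0.12 without library C (adjusted p = 0.301).

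EED, which reads the finished methyl mark and stimulates the enzyme, had 20.26, 19.21 and 19.94 CPM under DMSO in HCC1395 and 21.52, 22.08 and 21.96 under EZH2i. It had 13.62, 13.49 and 14.05 CPM under AKTi and 15.23, 13.42 and 14.44 under both. The libraries with AKTi lay below all others, and those with EZH2i alone lay above DMSO without overlap, a change of 0.15 that missed the threshold (95% interval -0.01 to 0.30, adjusted p = 0.0961). EED fell by 0.54 ± 0.07 under AKTi (adjusted p = 1.46e-06) and by 0.47 ± 0.07 under both (adjusted p = 4.3e-06). In HCC1937 it went from 35.71, 33.73 and 32.21 CPM to 20.11, 21.04 and 22.84, a fall by 0.67 ± 0.07 (adjusted p = 1.58e-06). In HCC38 it had 52.75, 56.59 and 53.06 CPM under DMSO and 41.80, 45.43 and 48.60 under both, with no overlap. That fall was 0.29 on the log2 scale (change -0.29 ± 0.10, adjusted p = 0.0451), and without library C it was -0.30 (adjusted p = 0.00584). The HCC38 call was lost without each of the other 5 libraries in turn, with adjusted p from 0.0857 (treated library A) and 0.11 (DMSO library C) to 0.115 (DMSO library A), 0.159 (DMSO library B) and 0.16 (treated library B).

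RBBP4, a histone-binding protein that PRC2 shares with other chromatin complexes, had 219.86, 211.86 and 213.08 CPM under DMSO in HCC1395 and 212.01, 207.24 and 210.16 under EZH2i. It had 169.81, 167.45 and 163.32 CPM under AKTi and 145.38, 149.75 and 149.66 under both. The AKTi libraries were below every library without AKTi, and those with both were lower still. RBBP4 fell by 0.37 ± 0.04 under AKTi (adjusted p = 2.45e-07), by 0.54 ± 0.04 under both (adjusted p = 5.12e-10) and by 0.17 from AKTi to both (adjusted p = 0.00282). In HCC1937 the fall was smaller, from 207.76, 222.21 and 212.42 CPM to 189.54, 174.72 and 176.68 (-0.25 ± 0.06, adjusted p = 0.00125), and it differed from that of HCC1395 by 0.29 (adjusted p = 0.0121). In HCC38 the treated libraries (196.07, 216.26 and 236.43 CPM) spanned the DMSO libraries (222.73, 221.95 and 222.92), with a change of -0.07 (adjusted p = 0.592), or -0.10 without library C (adjusted p = 0.309).

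JARID2 and AEBP2 define the form of PRC2 that recognises ubiquitinated histone H2A, and neither passed the threshold in HCC38 or HCC1937. In HCC38 the JARID2 change was 0.11 (0.14 without library C, adjusted p = 0.424 and 0.225), and that of AEBP2 was 0.02 (-0.01 without library C, adjusted p = 0.918 and 0.917). JARID2 had 49.22, 47.89 and 43.74 CPM under DMSO in HCC1395, 44.22, 43.19 and 47.48 under EZH2i, 51.92, 47.28 and 48.58 under AKTi, and 44.36, 39.23 and 46.37 under both. All 3 treated groups overlapped DMSO, with uncalled changes of -0.06, 0.06 and -0.13 under EZH2i, AKTi and both. The last of these passed the threshold with RLE scaling (-0.17, adjusted p = 0.0424) and without DMSO library C (0.0494) or EZH2i+AKTi library C (0.0273). JARID2 was lower under both than under AKTi (-0.19, adjusted p = 0.0329), a call lost without the EZH2i+AKTi library B (-0.09, adjusted p = 0.288), AKTi library A (0.145), AKTi library C (0.0634) or EZH2i library A (0.105). AEBP2 had 64.78, 66.89 and 62.90 CPM under DMSO, 69.07, 72.44 and 69.91 under EZH2i, 70.26, 72.34 and 73.94 under AKTi, and 69.33, 69.53 and 74.95 under both. The DMSO libraries were the lowest 3 of these 12. AEBP2 was called under AKTi (0.15 ± 0.05, adjusted p = 0.0197) and under both (0.13 ± 0.05, adjusted p = 0.037), and with RLE scaling these values were 0.11 (adjusted p = 0.0956) and 0.09 (adjusted p = 0.153). Both calls were also lost in DESeq2 (adjusted p = 0.121 and 0.236), with no filter (0.16 and 0.256) and with the 2 groups fitted alone (0.0504 and 0.222). These calls were lost in 6 and 8 of the 12 fits that each left out 1 library. Leaving out the EZH2i library A gave 0.07 under AKTi (adjusted p = 0.278) and 0.09 under both (adjusted p = 0.172). Under EZH2i alone the AEBP2 change was of like size, 0.12 ± 0.05, and not called (adjusted p = 0.0645). It passed the threshold with the 2 groups fitted alone (adjusted p = 0.0279) and without EZH2i+AKTi library C (0.034). With a filter of at least 1 CPM in at least 3 libraries it also passed (0.0324).

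The 3 Polycomb-like proteins, which bind CpG-rich DNA and, through a Tudor domain, a histone mark of active genes, moved in different directions. PHF19, a Polycomb-like protein often high in tumours, had 158.53, 152.45 and 151.21 CPM under DMSO in HCC1395 and 107.21, 106.18 and 107.27 under AKTi. PHF1 had 43.43, 44.25 and 45.05 CPM under DMSO and 60.07, 55.99 and 57.58 under AKTi. MTF2 had 35.95, 32.66 and 34.31 CPM under DMSO and 31.87, 31.19 and 29.93 under AKTi. PHF19 was far below DMSO, PHF1 well above it, and MTF2 slightly below it, in each case with no overlap. PHF19 fell by 0.53 ± 0.05 (adjusted p = 1.27e-08), PHF1 rose by 0.38 ± 0.06 (adjusted p = 1.89e-05), and MTF2 fell by 0.15 ± 0.06 (adjusted p = 0.037). The MTF2 call was lost without AKTi library B (adjusted p = 0.071), AKTi library C (0.136), DMSO library A (0.144) or DMSO library C (0.073). Under EZH2i alone the uncalled changes were -0.03 for PHF19 (adjusted p = 0.653), -0.09 for PHF1 (0.276) and -0.13 for MTF2 (0.104). That of MTF2 passed the threshold in DESeq2 (-0.17, adjusted p = 0.0329) and with RLE scaling (-0.17, 0.0319). Without EZH2i+AKTi library B it was -0.18 (adjusted p = 0.0125), and PHF1 was -0.14 (0.0369).

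Under both inhibitors in HCC1395, PHF1 (60.53, 60.22 and 53.17 CPM) stayed above DMSO (0.38 ± 0.06, adjusted p = 1.16e-05) and PHF19 (112.63, 126.68 and 115.60 CPM) below it (-0.39 ± 0.05, adjusted p = 6.41e-07). MTF2 had 25.72, 25.54 and 25.70 CPM, lower than under either inhibitor alone, and fell by 0.43 ± 0.06 (adjusted p = 2.58e-06). Its fall from AKTi to both was 0.28 on the log2 scale (change -0.28, adjusted p = 0.00105). PHF19 was higher under both than under AKTi (0.14, adjusted p = 0.0259), a call lost with no filter (0.0559), with the 2 groups fitted alone (0.0519), and without AKTi library A (0.0653), B (0.0777) or C (0.0677) or EZH2i+AKTi library B (0.0576). Per exon kilobase, PHF1 made up 30.0% ± 0.93 (SD, n = 3) of the RNA of the 3 Polycomb-like genes under DMSO and 43.2% ± 0.71 under AKTi, and PHF19 55.8% ± 0.71 and 42.7% ± 0.68. PHF19 was thus the most abundant of the 3 under DMSO, and under AKTi PHF1 and PHF19 overlapped.

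In HCC1937 the Polycomb-like gene that moved was MTF2, from 33.35, 36.18 and 36.16 CPM to 25.10, 23.55 and 22.82 under both, a fall by 0.57 ± 0.07 (adjusted p = 5.55e-06). PHF1 had a change of 0.12 (adjusted p = 0.205) and PHF19 one of -0.13 (adjusted p = 0.0522), which was -0.16 by DESeq2 (adjusted p = 0.0226) and -0.17 without the treated library C (adjusted p = 0.0323). In HCC38 PHF1 went from 47.64, 54.95 and 48.30 CPM to 45.81, 45.14 and 35.10, without overlap (-0.29 ± 0.12, adjusted p = 0.103), and library C was the lowest. Without that library the PHF1 change was -0.14 (adjusted p = 0.224). MTF2 in HCC38 had a change of -0.11 (adjusted p = 0.503), or -0.18 without library C (adjusted p = 0.113). PHF19 in HCC38 had 95.73, 93.29 and 95.46 CPM under DMSO and 88.54, 75.73 and 74.46 under both (-0.28, adjusted p = 0.0515), which was -0.20 without library C (adjusted p = 0.0678) and -0.35 without treated library A (adjusted p = 0.0088).

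**Figure D3:**
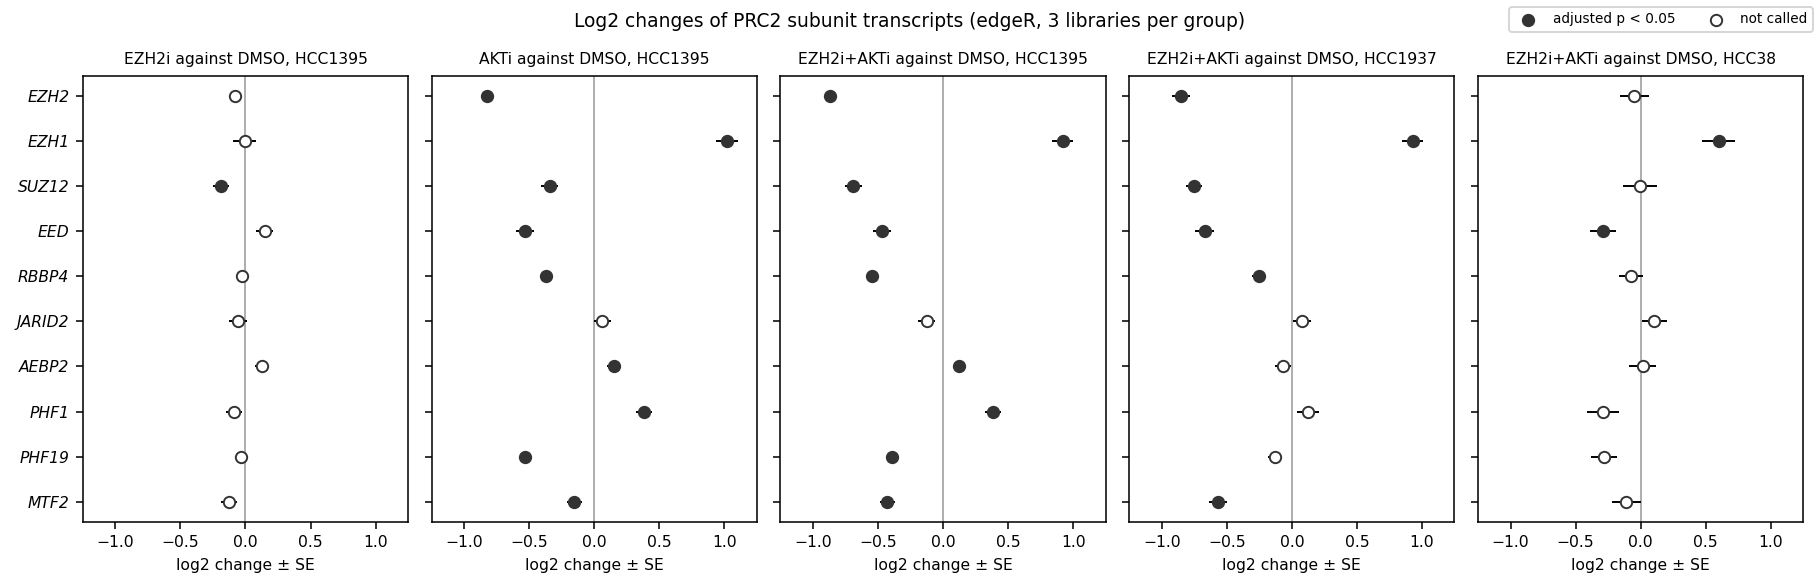
Log2 change with its SE for each of the 10 transcripts in 5 comparisons with DMSO, 3 libraries per group (filled points, adjusted p under 0.05). EZH1 lies to the right in each panel with AKTi, EZH2 lies near -0.85 in HCC1395 and HCC1937 and near 0 in HCC38, and the points under EZH2i alone lie within 0.2 of 0.

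Counted over the 10 members, 1 was called under EZH2i in HCC1395 (0 higher, 1 lower), where 33.7% of all genes tested were called (18.8% higher, 14.9% lower). Under AKTi 9 were called (3 higher, 6 lower) against 49.7% of all genes (27.1% higher, 22.6% lower), and under both 9 (3 higher, 6 lower) against 60.0% (32.5% higher, 27.4% lower). The count under EZH2i ran from 0 to 4 as single libraries were left out, with 0 without DMSO library A and 4 without EZH2i+AKTi library B. These comparisons share the DMSO libraries. From EZH2i to both 8 were called (49.0% of all genes), and from AKTi to both 5 (1 higher, 4 lower, against 35.5%). In HCC1937 6 were called (1 higher, 5 lower) against 59.3% of all genes (30.5% higher, 28.8% lower), and in HCC38 2 (1 higher, 1 lower) against 31.4% (16.8% higher, 14.5% lower). Over both directions the members' shares in these lines lay near or below the background. By direction, the share called lower in HCC1937 lay above the background and the share called higher below it. The background itself moved with single libraries: the 2488 genes called lower in HCC38 became 1432, 1176 and 1556 without DMSO library A, B or C and 1060 without treated library B. The 2685 called lower under EZH2i became 4384 without EZH2i+AKTi library B. The median change of the members in HCC1395 was -0.05 with EZH2i, -0.25 with AKTi and -0.41 with the pair, beside medians over all genes of 0.02, 0.06 and 0.07. It was -0.19 in HCC1937 and -0.06 in HCC38, beside 0.03 and -0.01.

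The interaction in HCC1395, the amount by which the change under both inhibitors departed from the 2 single changes added together, was called for 0 of the 10 members by edgeR, with 2 at an unadjusted p under 0.05, against 1.58% of all genes called (95 genes higher and 191 lower, which became 146 and 125 with RLE scaling). As single libraries were left out the higher count ran from 38 (without EZH2i library B) to 485 (without EZH2i+AKTi library B), and the lower count from 64 (without EZH2i library A) to 656 (without EZH2i+AKTi library C). DESeq2 also called 0 members. For EZH2 it was 0.04 (95% interval -0.12 to 0.19) and for EZH1 -0.09 (95% interval -0.36 to 0.18).

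Untreated lines differed in their PRC2 transcripts, about as often as in all genes tested. Per exon kilobase, EZH2 had 29.8 ± 1.09 CPM (SD, n = 3) in HCC1395, 20.8 ± 1.32 in HCC1937 and 10.5 ± 0.12 in HCC38, in that order without overlap. EED ran the other way, with 2.82 ± 0.08 in HCC1395, 4.83 ± 0.25 in HCC1937 and 7.72 ± 0.30 in HCC38. SUZ12 was lowest in HCC1395 (8.63 ± 0.15), with 16.4 ± 1.44 in HCC38 and 19.4 ± 0.90 in HCC1937, and the last step was called (0.24, adjusted p = 0.0172) but not without HCC1937 DMSO library B (adjusted p = 0.0514) or HCC38 DMSO library B (0.111). RBBP4 stood at 22.7 ± 0.46, 22.6 ± 0.78 and 23.5 ± 0.05 in HCC1395, HCC1937 and HCC38 and was called in no pair of lines. EZH1 was the least abundant member in each untreated line, at 0.952 ± 0.05, 1.40 ± 0.08 and 1.26 ± 0.04. In log2 terms EZH2 was 1.51 lower in HCC38 than in HCC1395 (change -1.51), and EED was 1.45 higher. Of the 10 members 8 were called between HCC38 and HCC1395 (74.7% of all genes), 6 between HCC1937 and HCC1395 (73.0%) and 8 between HCC1937 and HCC38 (71.9%). These counts lay near the shares of all genes. The members' median absolute log2 changes were 0.67, 0.47 and 0.57 in the same order, beside 0.97, 0.88 and 0.85 over all genes.

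The response to both inhibitors was then compared between lines. Between HCC38 and HCC1395, 5 members differed (33.0% of all genes): EZH2, SUZ12 (0.70), RBBP4 (0.49), MTF2 (0.34) and PHF1 (-0.65). The first 4 of these fell in HCC1395 and were not called in HCC38, so their signed changes lay higher in HCC38. That of PHF1 lay lower. Between HCC1937 and HCC38, 5 differed (32.0%): EZH2, SUZ12 (-0.77), EED (-0.41) and MTF2 (-0.49) fell further in HCC1937, and PHF1 (0.38) had the higher signed change there. Between HCC1937 and HCC1395, 2 differed (23.3%), RBBP4 (0.29) and PHF19 (0.25). The PHF19 call was lost in 16 of the 24 fits that each left out 1 library (adjusted p from 0.0131 to 0.127 over the 24), with a replicate block (0.0514) and with no filter (0.168), and the RBBP4 call with no filter (0.076). The MTF2 difference of HCC38 from HCC1395 was 0.24 without HCC38 library C under both (adjusted p = 0.064), 0.31 without HCC1395 DMSO library A (0.0566) and 0.31 without HCC38 DMSO library C (0.0506). Without HCC38 library C under both, 4 members differed between HCC38 and HCC1395, with EZH2 at 0.74, SUZ12 at 0.55, RBBP4 at 0.43 and PHF1 at -0.54, and 4 between HCC1937 and HCC38, with EZH2 at -0.74, SUZ12 at -0.63, EED at -0.36 and MTF2 at -0.39.

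The genes of DNA replication moved with these changes, and their part in the changes was not tested. Of 24 genes of the G1/S step and replication, such as MCM6, a subunit of the replicative helicase, and CDC6, which loads it, 23 were lower under AKTi in HCC1395 and 23 under both. Their median changes were -1.37 and -1.47, beside 0.06 and 0.07 over all genes. In HCC1937 24 of 24 were lower (median -0.93), in HCC38 5 were lower and 1 higher (median -0.22), and under EZH2i 8 were lower and 1 higher (median -0.10). The HCC38 count of lower genes ran from 0 to 10 as single libraries were left out, with 7 without library C under both, and the count under EZH2i from 4 to 14. CDC6 fell by 1.99 under AKTi in HCC1395 and by 1.51 in HCC1937, and MCM6 fell by 1.65 and 0.84. Summed over the 24 genes, HCC1395 libraries held 3159 to 3433 CPM without AKTi and 1321 to 1376 with it, HCC1937 libraries 3916 to 4026 under DMSO and 2190 to 2216 under both, and HCC38 libraries 3224 to 3302 and 2855 to 2957. The ranges with and without AKTi were far apart in HCC1395 and HCC1937, and closer, still without overlap, in HCC38. Of 12 genes of the G2/M step, 9 were lower under AKTi in HCC1395, 9 under both, 10 in HCC1937 and 5 in HCC38, with 0 higher in each, and under EZH2i 1 was higher and 0 lower. The HCC38 counts ran from 2 to 6 lower and from 0 to 2 higher as single libraries were left out, with 6 and 2 without library C. The mitochondrial share of counts also moved, from 3.77 to 3.92% under DMSO in HCC1395 to 4.49 to 5.19% under EZH2i, 5.34 to 5.72% under AKTi and 6.14 to 6.30% under both. In HCC1937 it was 4.81 to 6.37% under DMSO and 6.72 to 8.54% under both, without overlap, and in HCC38 5.08 to 5.82% and 4.76 to 7.77%. Its part in the changes was not tested either.

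**Figure D4:**
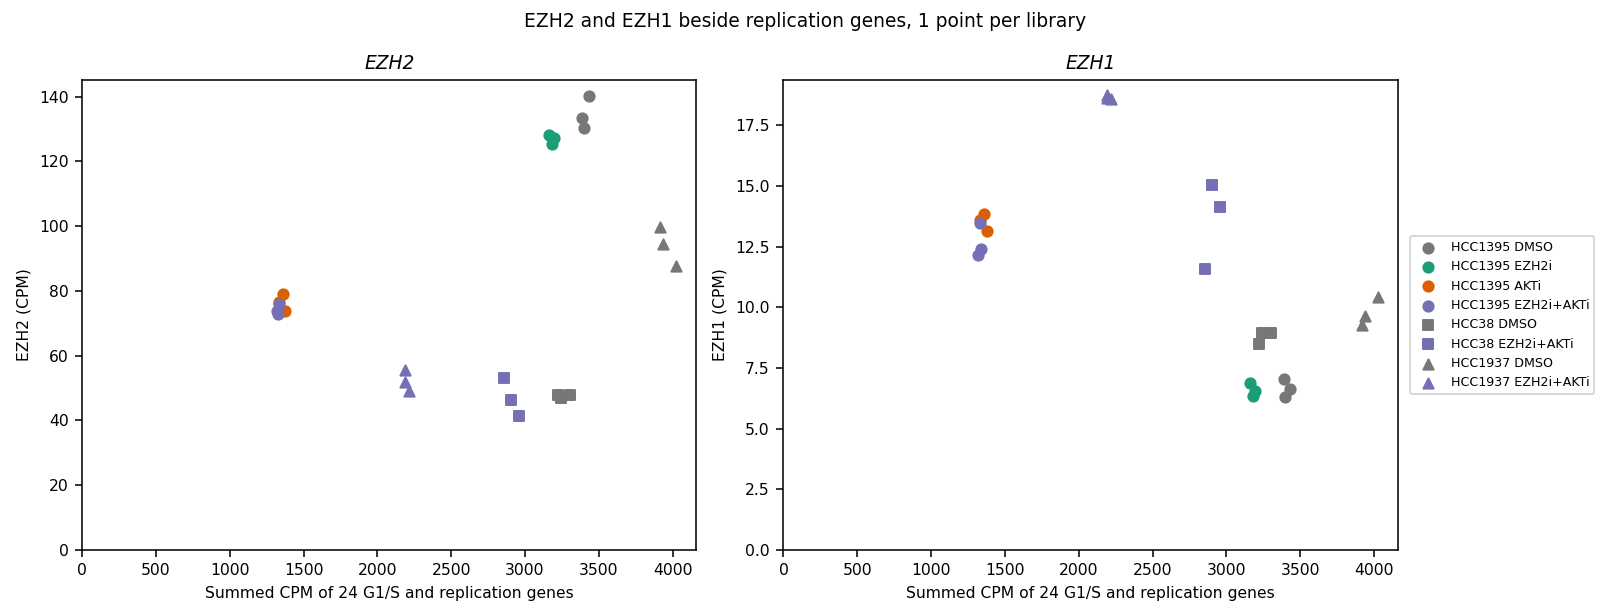
EZH2 (left) and EZH1 (right) in CPM against the summed CPM of 24 G1/S and replication genes, 1 point per library (circles HCC1395, squares HCC38, triangles HCC1937; colours by treatment). In HCC1395 and HCC1937 the libraries with AKTi lie to the left, lower for EZH2 and higher for EZH1, while in HCC38 the treated libraries lie only a little to the left of DMSO, with EZH1 higher.

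Activating E2F factors drive the genes of that step, and repressive E2F factors and RB-family proteins hold them in check. Of 13 such genes, 9 were lower and 3 higher under AKTi in HCC1395, 10 and 3 under both, 9 and 3 in HCC1937, and 1 and 2 in HCC38. E2F1 fell by 1.79 under AKTi and by 1.81 under both in HCC1395 and by 0.98 in HCC1937, and E2F2 fell by 1.48, 1.28 and 1.17. The HCC38 counts ran from 0 to 2 lower and from 0 to 4 higher as single libraries were left out, with 2 and 3 without library C. Under EZH2i 2 were lower and 2 higher, and the lower count ran from 0 to 7. In HCC38 E2F1 had a change of -0.06 (adjusted p = 0.715) and E2F2 one of 0.04 (adjusted p = 0.816), which were 0.07 and 0.18 without library C (adjusted p = 0.523 and 0.131). RBL2, the RB relative of resting cells, rose under both inhibitors by 0.19 in HCC1395 (adjusted p = 0.0211), 0.42 in HCC1937 and 0.43 in HCC38 (adjusted p = 0.015). In HCC1395 it rose by 0.44 under AKTi alone, and its change under EZH2i was -0.17 (adjusted p = 0.0702). The value under both in HCC1395 ran from 0.09 to 0.25 as single libraries were left out, and its call was lost with RLE scaling (adjusted p = 0.0674), in DESeq2 (0.127), with the 2 groups fitted alone (0.13), and without DMSO library A (0.067) or C (0.0557), EZH2i library A (0.0768) or EZH2i+AKTi library C (0.17). The change under EZH2i was called in DESeq2 (-0.21, adjusted p = 0.0324), with RLE scaling (0.0265), with no filter (0.0131), with the 2 groups alone (0.00711), and without EZH2i library A (0.0457) or EZH2i+AKTi library B (0.00191) or C (0.0108). The HCC38 value was 0.40 without library C under both (adjusted p = 0.00138), and its call was lost without DMSO library B (adjusted p = 0.0859), DMSO library C (0.0535) or treated library B (0.0523).

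Of 6 further PRC2 partners, 5 were tested. RBBP7, which can take the place of RBBP4, fell by 0.35 under AKTi and 0.56 under both in HCC1395 and by 0.28 in HCC1937, with a change of -0.05 in HCC38 (adjusted p = 0.708), or -0.04 without library C (adjusted p = 0.75). EPOP, an elongin-binding partner of the Polycomb-like form, fell by 0.69 under AKTi and by 0.30 under both (adjusted p = 0.00885) in HCC1395, and rose by 0.27 under EZH2i (adjusted p = 0.0275). The fall under both was lost without DMSO library C (adjusted p = 0.0505). The rise missed the threshold in DESeq2 (0.23, adjusted p = 0.095), with RLE scaling (0.055), with no filter (0.0526) and without DMSO library A (0.0778), DMSO library B (0.121), EZH2i library A (0.188) or EZH2i library C (0.0522). In HCC38 EPOP had a change of 0.36, which passed the threshold without library C under both (0.58, adjusted p = 3.21e-05). In HCC1937 EPOP went the other way and was among 3 partners called lower, a count that ran from 2 to 3 as single libraries were left out. Its change there ran from -0.32 to -0.18 in those fits. Of 4 enzymes that remove the methyl mark or acetylate the same lysine, 4 rose under AKTi in HCC1395 and 2 under both, 1 rose in HCC1937 and 0 were called in HCC38, where KDM6B passed the threshold without library C (0.36, adjusted p = 0.00384). The count under AKTi ran from 2 to 4 as single libraries were left out. Under EZH2i 0 of these enzymes were higher and 1 lower. In HCC1937 their median change was -0.09 with 0 called lower, a count that ran from 0 to 3 as single libraries were left out. KDM6B, a demethylase of this mark, rose by 0.59 under AKTi (adjusted p = 1.34e-06) and 0.43 under both in HCC1395 and by 0.24 in HCC1937. Of 6 genes of the methyl donor cycle, 0 were higher and 3 lower under EZH2i in HCC1395 (18.8% and 14.9% of all genes). The 3 ran from 1 to 3 as single libraries were left out. Under AKTi 2 were higher and 1 lower (27.1% and 22.6% of all genes), and under both 2 and 2 (32.5% and 27.4%). In HCC1937 2 were higher and 3 lower (30.5% and 28.8%), and in HCC38 0 and 2 (16.8% and 14.5%).

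Genes that PRC2 is known to silence are a readout of the complex rather than a part of it. Of 24 such regulators, 18 were tested in HCC1395, and 13 rose under EZH2i with 0 lower (median 1.05, beside 0.02 over all genes). Under AKTi 7 were higher and 5 lower (median 0.03), and under both 13 and 1 (median 1.40). In HCC38 8 of 13 tested were higher and 2 lower (9 and 1 without library C), and in HCC1937 7 of 18 and 2. CCND2, which encodes cyclin D2, rose by 4.67 ± 0.13 under EZH2i in HCC1395 (adjusted p = 1.66e-15), and its change under AKTi was -0.41 (adjusted p = 0.144). That change ran from -0.63 to -0.24 as single libraries were left out, and passed the threshold without DMSO library A (-0.63, adjusted p = 0.036). These genes were chosen with earlier results of these libraries known and are not independent evidence of a direction. A gene with few counts under DMSO was tested only where another group held enough. The filter itself therefore tilts these counts and medians towards rises.

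The genes whose pattern was most like that of EZH2 over the 24 libraries, by Pearson correlation of log2 CPM among 12088 protein-coding genes, were NCAPD3 (r = 0.973), AMMECR1, ZGRF1, ACO1 and KIF15. Over the 12 HCC1395 libraries they were RAD54L (r = 0.997), DNAJA1, ESCO2, MCM5 and MCM10. For EZH1 they were SAT1 (r = 0.962), NBR1, FNBP1, MAFF and AGO4 over the 24 libraries, and LAMB1 (r = 0.996), PNPLA7, JMY, PER1 and ARHGAP12 over the 12. EZH1 and EZH2 themselves had r = -0.98 over the 12 HCC1395 libraries and -0.71 over all 24, and EZH2 and EED 0.95 and -0.48. The 12 libraries fall into those with and without AKTi, and libraries of a line share its baseline, so these values describe the patterns and carry no test.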

How the data were processed

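The authors deposited, for each of 24 libraries, raw counts per gene symbol (58735 entries, 57167 distinct symbols). The submitters' processing notes list fastp, HISAT2 2.0.5, DESeq2 and hg38. The read counter is not given in the sources used here, nor is the annotation release or strandedness. The 24 per-sample columns of the deposited normalised tables were not used. Counts were tested with edgeR 4.0.16 in R 4.3.3 (filterByExpr minimum count 10, TMM, robust quasi-likelihood test, two-sided, Benjamini-Hochberg over all genes tested), with 1 fit for each line and 1 fit of the 24 libraries for differences between lines. Genes tested numbered 18074 (HCC1395), 17100 (HCC38), 17692 (HCC1937) and 20697 (joint fit). Intervals use the residual degrees of freedom of each fit (8, 4, 4 and 16). The test also borrows degrees of freedom across genes, so an interval can include no change where the unadjusted p is under 0.05. Exon lengths came from GENCODE 29. The workflow was tested on simulated data.

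Members and lists were chosen with earlier results of these data known. All 10 members are named, with the 5 genes most like EZH2 and EZH1 (mean of at least 2 CPM, pseudocount 0.1 CPM) and up to 4 genes of a list with the smallest p, and which of these are printed was chosen after their values were seen. Alternatives were leaving out each library, fitting 2 groups alone, a block for the replicate letter, DESeq2 1.42.0 (Wald test), RLE scaling, and either no filter or one of at least 1 CPM in at least 3 libraries. No library was excluded from the values reported as the result.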

Additional observations from a re-analysis of the deposited data

Results flagged for a closer look

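The response of a subunit to both inhibitors, its log2 change against DMSO, differed between lines in 12 tests of the difference itself in the joint fit of 24 libraries (edgeR, adjusted over all genes tested). Of the 10 members, 5 were called for HCC38 minus HCC1395, where 33.0% of all genes were called. For HCC1937 minus HCC1395 it was 2 against 23.3%, and for HCC1937 minus HCC38 5 against 32.0%. The signed change of EZH2 lay 0.84 ± 0.10 higher in HCC38, where it was not called, than in HCC1395, where EZH2 fell (adjusted p = 1.72e-07). Its difference of HCC1937 from HCC38 was -0.83 ± 0.10 (adjusted p = 2.87e-07). For SUZ12 these differences were 0.70 ± 0.13 (adjusted p = 8.36e-05) and -0.77 ± 0.13 (adjusted p = 2.36e-05). MTF2 gave 0.34 ± 0.11 (adjusted p = 0.0182) and -0.49 ± 0.11 (adjusted p = 0.00117).

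PHF1 differed the other way, by -0.65 ± 0.13 between HCC38 and HCC1395 (adjusted p = 0.000165) and by 0.38 ± 0.13 between HCC1937 and HCC38 (adjusted p = 0.0207). The second of these was lost without the HCC38 EZH2i+AKTi library C (0.27, adjusted p = 0.0605), the HCC38 DMSO library B (0.31, 0.0804), the HCC1937 DMSO library B (0.35, 0.0571) or C (0.35, 0.0605), or the HCC1937 EZH2i+AKTi library C (0.31, 0.0835). The signed change of RBBP4 lay 0.49 ± 0.08 higher in HCC38 (adjusted p = 3.47e-05) and 0.29 ± 0.08 higher in HCC1937 (adjusted p = 0.0121) than in HCC1395. The fall of RBBP4 was largest in HCC1395. EED differed by -0.41 ± 0.10 between HCC1937 and HCC38 (adjusted p = 0.00254), and PHF19 by 0.25 ± 0.09 between HCC1937 and HCC1395 (adjusted p = 0.0396). The PHF19 call was lost in 16 of the 24 fits without 1 library (adjusted p up to 0.127), with a replicate block (0.0514) and with no filter (0.168), and the RBBP4 call for HCC1937 with no filter (0.076). The MTF2 difference between HCC38 and HCC1395 was lost without HCC38 EZH2i+AKTi library C (0.24, adjusted p = 0.064), HCC1395 DMSO library A (0.0566) or HCC38 DMSO library C (0.0506). The comparisons share the treated and DMSO libraries of each line.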

How the results depend on the processing

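The 10 subunits in 14 comparisons were refitted without each library in turn and under 6 other settings. Of 2280 values with a library left out, 2163 stayed on their side of the threshold and kept their sign, 61 lost the call, 19 gained one and 37 changed sign. Of 750 values under the other settings these numbers were 712, 18, 14 and 6. With the 9 further genes that were refitted, 47 values changed sign, and 0 of these were called in either fit. The cause of these differences was not tested. The 3 libraries in a group and the 216 to 10203 counts of a member in a library limit what could be called, and intervals are wider for HCC38 and HCC1937, each fitted with 4 residual degrees of freedom, than for HCC1395 with 8.

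Of the 10 members, 1 was called under EZH2i in HCC1395, and this count was 3 by DESeq2 and 2 with RLE scaling, with the stricter filter and with the 2 groups fitted alone. From AKTi to both, 5 became 3 with the 2 groups alone. In HCC38, 2 became 1 with no filter and 1 with the stricter filter. For the response of HCC1937 minus HCC1395, 2 became 0 with no filter. As single libraries were left out, the count ran from 0 to 4 under EZH2i, 7 to 9 under AKTi, 8 to 9 under both, 8 to 8 from EZH2i to both, 3 to 5 from AKTi to both, 0 to 0 for the interaction, 6 to 7 in HCC1937 and 1 to 2 in HCC38. It ran from 8 to 9, 6 to 6 and 7 to 8 for untreated HCC38 against HCC1395, HCC1937 against HCC1395 and HCC1937 against HCC38, and for the responses in the same order from 4 to 6, 1 to 3 and 4 to 7.

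The replicate letters showed no sign of pairing the libraries: the deviations of 24 same-letter pairs had r between -0.18 and 0.09. Of these pairs 0 exceeded 0.1, beside 3 of 48 pairs with different letters. Deviations from a mean of 3 libraries sum to 0 within a group, so these correlations cannot settle whether the letters pair. With a replicate block, 1 member was called in HCC38 (EED missed the threshold, adjusted p = 0.0603) and 1 in the response of HCC1937 minus HCC1395 (PHF19 missed it, adjusted p = 0.0514), and no other member's call was changed by the block.

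Log2 values that changed sign, uncalled in both fits, were as follows. DESeq2 gave -0.0021 for AEBP2 from EZH2i to both, and the stricter filter 0.0086 for EZH1 under EZH2i. With no filter RBBP4 was 0.011 between untreated HCC1937 and HCC1395, and EZH1 was -0.00071 for the response of HCC1937 minus HCC1395. SUZ12 in HCC38 was 0.0021 with RLE scaling and 0.030 with the stricter filter. With single libraries left out, values in HCC38 ran from -0.11 to 0.049 for EZH2, -0.12 to 0.11 for SUZ12, -0.10 to 0.0082 for RBBP4, -0.014 to 0.11 for AEBP2, -0.088 to 0.014 for RBBP7, -0.16 to 0.075 for E2F1 and -0.0081 to 0.18 for E2F2. Under EZH2i they ran from -0.060 to 0.034 for EZH1 and -0.080 to 0.014 for KDM6B, and under AKTi from -0.011 to 0.094 for JARID2. From AKTi to both they ran from -0.057 to 0.024 for AEBP2 and -0.035 to 0.060 for PHF1, and from EZH2i to both from -0.034 to 0.049 for AEBP2 and -0.12 to 0.028 for JARID2. For the interaction they ran from -0.13 to 0.047 for EED, -0.13 to 0.018 for EZH1 and -0.18 to 0.018 for JARID2. RBBP4 between untreated HCC1937 and HCC1395 ran from -0.043 to 0.019. For the response of HCC1937 minus HCC1395 the ranges were -0.039 to 0.049 for EZH1, -0.038 to 0.054 for EZH2 and -0.14 to 0.0043 for SUZ12, and for HCC1937 minus HCC38 -0.11 to 0.0028 for JARID2.

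Over all genes, 95 were called higher and 191 lower for the interaction. The higher count was 286 by DESeq2, 219 with no filter and 146 with RLE scaling, and the lower count 125 with RLE scaling. With single libraries left out they ran from 38 to 485 and from 64 to 656. From AKTi to both, 3358 genes were lower and 2169 with the 2 groups alone.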
